A study of Mus musculus with 4 samples.

Results

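The genes described here are 6 signal transducers and activators of transcription, Stat2, Stat3, Stat4, Stat5a, Stat5b and Stat6, and 3 Janus kinases, Jak1, Jak2 and Jak3. They were taken as a list of symbols, matched to Ensembl identifiers, and are 9 of the 39179 genes counted. All 9 passed the filter on low counts. Further members of both families were not analysed here. The cells were CD4 T cells with the OT-II transgene, a T cell receptor specific for ovalbumin, moved into C57BL/6 recipients that were then immunized under the skin with ovalbumin carrying nitrophenol. On day 8 the Thy-1.1+ transferred cells were sorted from pooled inguinal lymph nodes, either as T follicular helper (Tfh) cells, gated CD44hi CXCR5+ PD-1+, or as CXCR5- PD-1- non-Tfh cells. C57BL/6 is the only strain named, and the age and number of the mice are not given in the sources used here. Both groups therefore share the receptor, the host strain, the antigen and the day, and neither is an untreated control. There were 2 libraries of each, numbered T32 and T53 in both groups. What the numbers mark, and whether separate animals gave the libraries, is not in the labels, so every p-value is set against a spread between libraries that may be technical.

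Janus kinases are tyrosine kinases bound to the inner ends of cytokine receptors. When a cytokine brings receptor chains together, the kinases phosphorylate the receptor and then the STAT proteins that dock on it, and the STATs pair, enter the nucleus and switch genes on or off. In T helper cells IL-6 and IL-21 act mainly through STAT3, IL-12 through STAT4, IL-2 and IL-7 through STAT5, IL-4 through STAT6, and type I interferon through a complex that holds STAT2. STAT3 is known to favour the Tfh fate, and STAT5 is known to oppose it.

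The libraries held 5725358 to 13360563 counts over 14613 to 15946 detected genes. Levels are CPM, counts relative to library size after scaling by the trimmed mean of M-values, and 1 count was worth 0.0746 to 0.175 CPM. The members held 251 to 8662 counts per library, the lowest being Stat2 in Tfh T53. Of 7 CD4 T cell markers none differed by edgeR's test, and Cd4 itself measured 916 to 1063 CPM. Markers of other cells were also measured. The 7 B cell genes summed to 5.62 and 6.65 CPM in Tfh and 2.16 and 4.73 CPM in non-Tfh libraries, and the 7 myeloid and dendritic genes summed to 3.36 to 12.7 CPM, with 1 of 4 tested called lower in Tfh cells. Pax5, the single B cell marker above the count filter, was called higher in Tfh libraries, at 5.12 and 5.25 CPM against 0 and 0.45. Of 5 germinal centre B cell genes 2 were called higher, S1pr2 and Fas, which T cells also express, while Gcsam had no counts in any library. Of 3 NK cell genes, which summed to 44.8 and 57.7 CPM in Tfh and 21.8 and 13.8 CPM in non-Tfh libraries, Klrb1c was called higher, at 44.6 and 57.4 against 19.8 and 12.4 CPM, Eomes was called lower, and Ncr1 had no counts in any library. The 2 CD8 genes summed to 3.60 to 6.21 CPM with no call, and Cd8a held 0 to 2 counts. The part of these genes in the differences given here was not tested. In these bulk samples, fewer cells expressing a gene and less RNA of it per cell cannot be told apart.

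Jak2 was the member that differed. It was 2.22-fold higher in Tfh than in non-Tfh cells, and the other 8 members differed by less than 1.5-fold and did not pass the test. Across all 11702 genes tested with edgeR's quasi-likelihood test, 8.49% passed an adjusted p of 0.05, 4.47% with a higher and 4.02% with a lower level in Tfh cells. Of the 9 members 1 passed as higher and 0 as lower. No STAT gene passed with edgeR, DESeq2 or limma-voom, while 3 of 6 had an unadjusted p under 0.05 in edgeR. Over all 9 members 4 had an unadjusted p under 0.05, against 22.0% of all genes tested. The median log2 fold change was 0.24 for the 9 members and -0.0053 for all genes. In scaled CPM the groups did not overlap for 8 of the 9 members, against 52.2% of all genes tested. Tfh was above for 6 members, against 26.6% of all genes, and below for 2, against 25.6%.

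**Figure D1:**
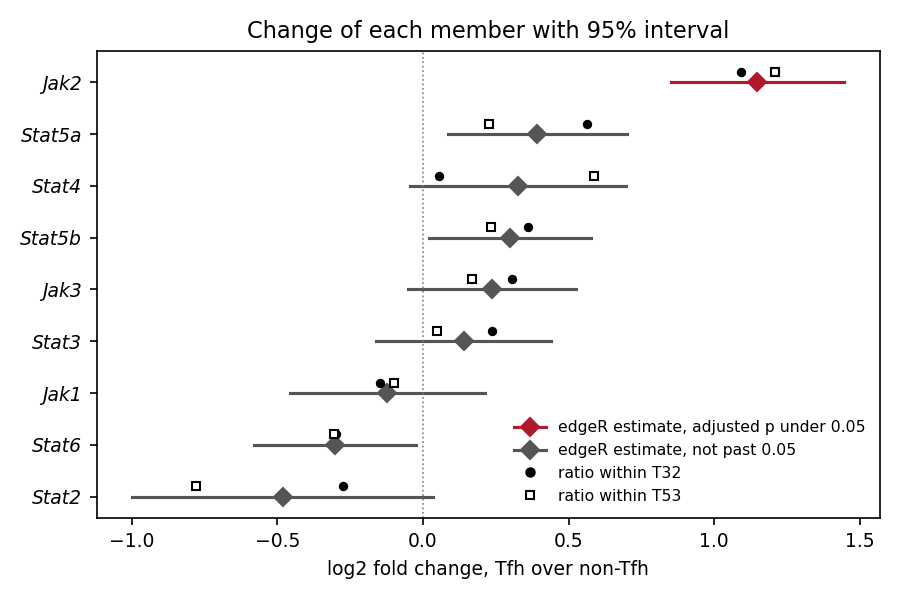
Change of each member on the log2 scale, Tfh over non-Tfh. Diamonds are edgeR estimates with 95% intervals, and small points are the ratios between libraries of the same number; Jak2, at 1.15, stands apart from the other 8, which lie between -0.48 and 0.39.

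Jak2 is a kinase of the interferon-gamma receptor, of the IL-12 and IL-23 receptors and of receptors with gp130. Its gene, ENSMUSG00000024789, lies on the forward strand of GRCm38 chromosome 19, 29251828 to 29313080. It measured 661 and 678 CPM in the Tfh libraries T32 and T53, and 310.4 and 294 CPM in the non-Tfh libraries of the same numbers. Both Tfh libraries were above both non-Tfh libraries, and the gap between groups was many times the gap within either. The log2 fold change was 1.15 ± 0.12 (SE), with a 95% interval of 0.85 to 1.45 and an adjusted p of 0.00443 in edgeR's quasi-likelihood test. The ratio was 2.13 within T32 and 2.31 within T53. With each library left out in turn the log2 fold change stayed between 1.11 and 1.19 and the adjusted p between 0.00879 and 0.0109. It also passed a test against a minimum fold of 1.5 (adjusted p = 0.0232), the largest adjusted p among its 14 alternatives. No other annotated gene shared a 75-base stretch with Jak2 transcripts, so read sharing of that kind does not touch its counts. Of 9 other tested genes within 250 kb of Jak2, none was called by edgeR, DESeq2 or limma-voom. In edgeR 4 of the 9 had an unadjusted p under 0.05. Among all genes tested edgeR called 8.49%, and 22.0% had an unadjusted p under 0.05. The 9 include Cd274 and Pdcd1lg2, which encode the ligands of PD-1. Pdcd1lg2 measured 5.79 and 12.8 CPM in Tfh T32 and T53 and 3.21 and 4.73 CPM in non-Tfh T32 and T53. Its log2 fold change was 1.20 (adjusted p = 0.182 in edgeR), and that of Cd274 was -0.26 (adjusted p = 0.349 in edgeR).

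The 250 bases before the RefSeq start of Jak2 are shown because it is the member with a called difference. They lie at GRCm38.p6 chr19:29251553-29251802 on the forward strand.
Jak2: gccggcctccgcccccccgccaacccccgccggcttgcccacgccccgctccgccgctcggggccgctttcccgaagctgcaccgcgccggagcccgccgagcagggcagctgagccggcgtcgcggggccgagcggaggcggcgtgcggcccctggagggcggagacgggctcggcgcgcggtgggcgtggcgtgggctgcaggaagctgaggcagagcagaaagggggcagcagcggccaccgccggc
This stretch was 80.8% G and C, against a median of 52.4% over 32851 RefSeq promoter windows of the same length. It held no match, on either strand, to the STAT site TTCNNNGAA, to the STAT6-type form of it with 4 bases between TTC and GAA, or to the interferon response core, GAAA repeated after any 2 bases. Those letters occurred in 7.02%, 5.85% and 2.98% of all windows. The 9 members have 12 such windows, since Stat4, Stat5a and Stat5b have more than 1 start, and none held TTCNNNGAA. The windows of Stat5a, Jak1 and Jak3 and the upstream window of Stat5b overlap annotated exons, so they are partly transcribed sequence. That of Jak2 does not overlap any.

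Neither Jak1 nor Jak3 passed the test. Jak1, which serves the gamma chain, gp130 and interferon receptors (ENSMUSG00000028530, chromosome 4, 101152367 to 101265282), measured 583 and 660 CPM in Tfh T32 and T53 and 646 and 708 CPM in non-Tfh T32 and T53. It was the one member whose groups overlapped, with a log2 fold change of -0.12 ± 0.14 (95% interval -0.46 to 0.21, adjusted p = 0.686 in edgeR). Jak3, which pairs with the common gamma chain (ENSMUSG00000031805, chromosome 8, 71676296 to 71690575), measured 318 CPM in both Tfh libraries and 257 and 283 CPM in non-Tfh T32 and T53. Its log2 fold change was 0.24 ± 0.12 (95% interval -0.052 to 0.52, adjusted p = 0.32 in edgeR), which leaves room for a rise of up to 1.44-fold. Jak3 shares 404 exon bases with Insl3 on the same strand, and Insl3 itself held 6 to 13 counts per library.

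The make-up of the kinase pool was measured as each gene's share of the counts on the 3 kinases, which does not depend on how libraries were scaled. In Tfh cells Jak2 took 42.3% of these counts in T32 (exact 95% interval 41.6 to 43.0%) and 40.9% in T53 (39.9 to 41.9%). In non-Tfh cells it took 25.6% in T32 (24.9 to 26.3%) and 22.9% in T53 (22.1 to 23.6%). The mean share was 24.2% ± 1.94 in non-Tfh and 41.6% ± 0.997 in Tfh cells (SD, n = 2 each), a difference of 17.4 percentage points. The mean share of Jak1 was 54.2% ± 1.32 in non-Tfh and 38.6% ± 1.78 in Tfh cells, and that of Jak3 21.6% ± 0.611 and 19.8% ± 0.787. Intervals cover counting error only. With 2 libraries against 2 an exact permutation test cannot go below p = 0.333, the value for each of the 3 kinases (two-sided, 0.429 after adjustment over the 9 members). Per base of exon there were 1.63 and 1.48 Jak2 counts for each Jak1 count in Tfh T32 and T53, and 0.691 and 0.596 in non-Tfh T32 and T53. The leading kinase transcript per length was therefore Jak2 in both Tfh libraries and Jak1 in both non-Tfh libraries.

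**Figure D2:**
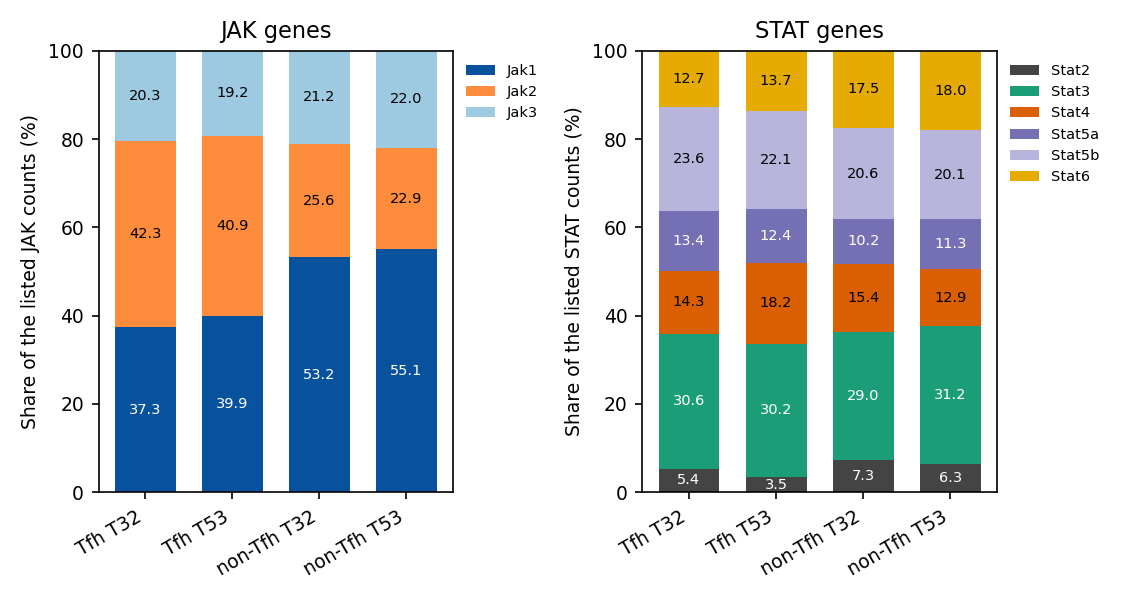
Share of the counts on the 3 listed Janus kinases (left) and the 6 listed STAT genes (right) taken by each gene, in percent, 1 bar per library. Jak2 takes 42.3 and 40.9% of the kinase counts in Tfh libraries and 25.6 and 22.9% in non-Tfh libraries, while the STAT bars differ by a few points.

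Stat3, the transducer of IL-6 and IL-21 (ENSMUSG00000004040, chromosome 11, 100885098 to 100939540), measured 388 and 383 CPM in Tfh T32 and T53 and 329.5 and 370.3 CPM in non-Tfh T32 and T53. Both Tfh values were above both non-Tfh values, by a margin smaller than the gap between the non-Tfh libraries. The log2 fold change was 0.14 ± 0.12 (95% interval -0.16 to 0.44, adjusted p = 0.595 in edgeR), and Stat3 took 29.0 to 31.2% of the counts on the 6 STAT genes in every library.

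Stat5a and Stat5b, the transducers of IL-2 and IL-7, showed small differences of the same sign. Stat5a (ENSMUSG00000004043, chromosome 11, 100859351 to 100885169) measured 171 and 157 CPM in Tfh T32 and T53 and 116 and 134 CPM in non-Tfh T32 and T53, a log2 fold change of 0.39 ± 0.13 (95% interval 0.087 to 0.70, adjusted p = 0.127 in edgeR). Stat5b (ENSMUSG00000020919, chromosome 11, 100780731 to 100850724) measured 300.2 and 280.3 CPM against 234 and 239 CPM in the same order, a log2 fold change of 0.30 ± 0.12 (95% interval 0.021 to 0.58, adjusted p = 0.196 in edgeR). The groups did not overlap for either gene, and neither passed. Together with Stat3 they form a cluster: Stat5b and Stat5a lie 8626 bases apart in opposite orientation, and the 3′ ends of Stat5a and Stat3 overlap by 72 exon bases on opposite strands. Whether counting used strand is not given in the sources used here, so how reads in those 72 bases were counted is not known.

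The coding sequences of Stat5a and Stat5b are nearly the same in places, so some reads fit both genes. Of the 75-base windows in their transcripts 5.12% of those of Stat5a and 6.99% of those of Stat5b occur in the other gene. The longest identical run spans 324 bases, from base 571 to base 894 of both coding sequences in GENCODE M21. A read inside it cannot be assigned to one of them by its own sequence, though its mate in the pair may lie outside. The first 150 bases of the run, to base 720, are printed to show the shared sequence.
Stat5a and Stat5b: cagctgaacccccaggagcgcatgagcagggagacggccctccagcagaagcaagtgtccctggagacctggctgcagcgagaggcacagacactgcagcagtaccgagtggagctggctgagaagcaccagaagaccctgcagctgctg
The count ratio of Stat5a to Stat5b was 0.568 and 0.561 in Tfh T32 and T53, and 0.494 and 0.564 in non-Tfh T32 and T53. These ratios overlap between the groups, and non-Tfh T32 was the low one.

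Stat4 and Stat6, which carry the IL-12 and IL-4 signals, had differences of opposite sign that did not pass. Stat4 (ENSMUSG00000062939, chromosome 1, 51987148 to 52107189) measured 181 and 231 CPM in Tfh T32 and T53 and 175 and 154 CPM in non-Tfh T32 and T53, a log2 fold change of 0.33 ± 0.15 (95% interval -0.045 to 0.70, adjusted p = 0.288 in edgeR). The log2 ratio was 0.59 within T53 and 0.056 within T32. Without Tfh T53 the log2 fold change was 0.16. Stat4 shares 1033 exon bases with the transcript Gm28177 on the same strand, which was not used here. Stat6 (ENSMUSG00000002147, chromosome 10, 127642986 to 127660957) measured 162 and 173 CPM in Tfh T32 and T53 and 199 and 214 CPM in non-Tfh T32 and T53, a log2 fold change of -0.30 ± 0.12 (95% interval -0.58 to -0.024, adjusted p = 0.191 in edgeR). Its ratio was 0.813 within T32 and 0.809 within T53, so both numbers gave the same small difference. Stat6 took 12.7 and 13.7% of the STAT counts in Tfh libraries and 17.5 and 18.0% in non-Tfh libraries, a mean difference of -4.59 percentage points that was larger than the SDs of 0.654 and 0.372 but, at 2 against 2, has an exact permutation p of 0.333 (two-sided, 0.429 adjusted). The 40 exon bases that Stat6 shares with Nab2 lie on opposite strands.

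Stat2, the interferon transducer (ENSMUSG00000040033, chromosome 10, 128270559 to 128292849), was the least abundant member. It measured 68.4 and 43.9 CPM in Tfh T32 and T53, and 82.8 and 75.3 CPM in non-Tfh T32 and T53. Tfh T53 was the lowest library, and the ratio was 0.826 within T32 and 0.583 within T53. The log2 fold change was -0.48 ± 0.21 (95% interval -0.998 to 0.036, adjusted p = 0.259 in edgeR). Without Tfh T32 it was -0.85 and passed (adjusted p = 0.0456), and without Tfh T53 it was -0.20 and did not (adjusted p = 0.785). Without a count filter it passed as well (-0.49, adjusted p = 0.0131). Over its 14 alternatives the adjusted p ran from 0.0131 to 1.

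Genes that interferon induces through STAT2 were lowest in the same library. Of 20 listed interferon target genes all 20 had their lowest level in Tfh T53. Their summed level was 1133 and 415 CPM in Tfh T32 and T53, and 1419 and 984 CPM in non-Tfh T32 and T53. Irf9, the DNA-binding partner of STAT2, measured 148, 98.3, 182 and 161 CPM in that order. None of the 20 was called by edgeR or limma-voom, DESeq2 called 1, and 2 had an unadjusted p under 0.05 in edgeR. In edgeR 4 were called lower with the replicate block and 1 without a count filter. The summed level was lower in T53 than in T32 in both groups, and lower in Tfh than in non-Tfh cells within both numbers. Irf7 measured 178 and 68.6 CPM in Tfh and 177 and 124 CPM in non-Tfh T32 and T53, and Oas3 measured 133 and 55.8 CPM in Tfh and 156 and 124 CPM in non-Tfh T32 and T53. The median log2 fold change of the 20 was -0.62, but -0.027 without Tfh T53 and -1.51 without Tfh T32, where 10 were called lower, against 1 without Tfh T53. The part of that library in the Stat2 difference was not tested beyond these values.

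The bases before the start of Stat2 (GRCm38.p6 chr10:128270248-128270497, forward strand) are shown because this member and the interferon target genes were lowest in the same library. The capitals mark a match to the interferon response core, read on the opposite strand, beginning at position -222 from the start, and a separate match to the STAT6-type form at position -210.
Stat2: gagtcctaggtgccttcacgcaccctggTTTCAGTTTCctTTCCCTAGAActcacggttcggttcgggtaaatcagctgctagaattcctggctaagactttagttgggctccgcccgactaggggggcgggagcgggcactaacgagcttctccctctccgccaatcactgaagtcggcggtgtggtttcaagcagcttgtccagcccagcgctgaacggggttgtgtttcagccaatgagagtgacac
The interferon response core was found in 2 of the 12 windows of the members, this one and the downstream start of Stat4, and the STAT6-type form in 1, against the shares of all windows given above. Such a match describes letters, not a bound site.

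**Figure D3:**
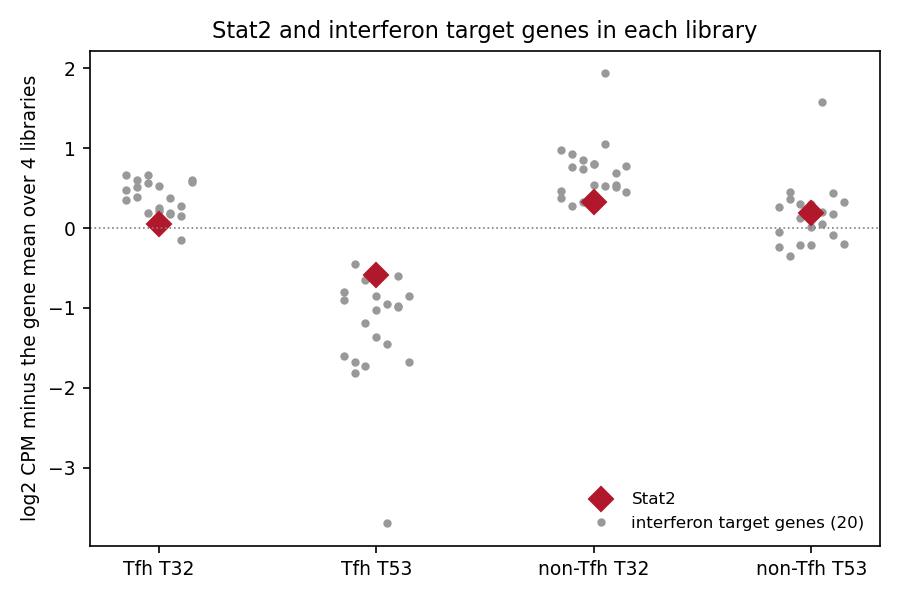
Level of Stat2 (red) and of 20 interferon target genes (grey) in each library, as log2 CPM minus the gene's mean over the 4 libraries. Stat2 and all 20 genes are lowest in Tfh T53, where Stat2 measured 43.9 CPM.

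The order of the members by level was compared per length, as CPM per kilobase of annotated exon. In Tfh cells Jak2 led with 133 ± 2.32, followed by Jak1 with 86.1 ± 7.53, Jak3 with 59.4 ± 0.0918, Stat4 with 53.2 ± 8.99, Stat5b with 52.4 ± 2.54, Stat3 with 40.5 ± 0.363, Stat6 with 38.0 ± 1.84, Stat5a with 23.0 ± 1.33 and Stat2 with 9.47 ± 2.92 (mean ± SD, n = 2). Jak3, Stat4 and Stat5b did not separate in that order, since the range of Stat4 covered the values of Jak3 and of Stat5b. In non-Tfh cells Jak1 led with 93.7 ± 6.10, followed by Jak2 with 60.1 ± 2.36, Jak3 with 50.5 ± 3.48, Stat6 with 46.9 ± 2.45, Stat5b with 42.6 ± 0.616, Stat4 with 42.4 ± 3.84, Stat3 with 36.7 ± 3.03, Stat5a with 17.5 ± 1.88 and Stat2 with 13.3 ± 0.892. There Jak3 and Stat6 overlapped, as did Stat5b and Stat4. Jak2 stood above Jak1 in Tfh cells only, and Stat6 stood above Stat5b, Stat4 and Stat3 in non-Tfh but below them in Tfh cells. Stat5a and Stat2 were the lowest in both groups.

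**Figure D4:**
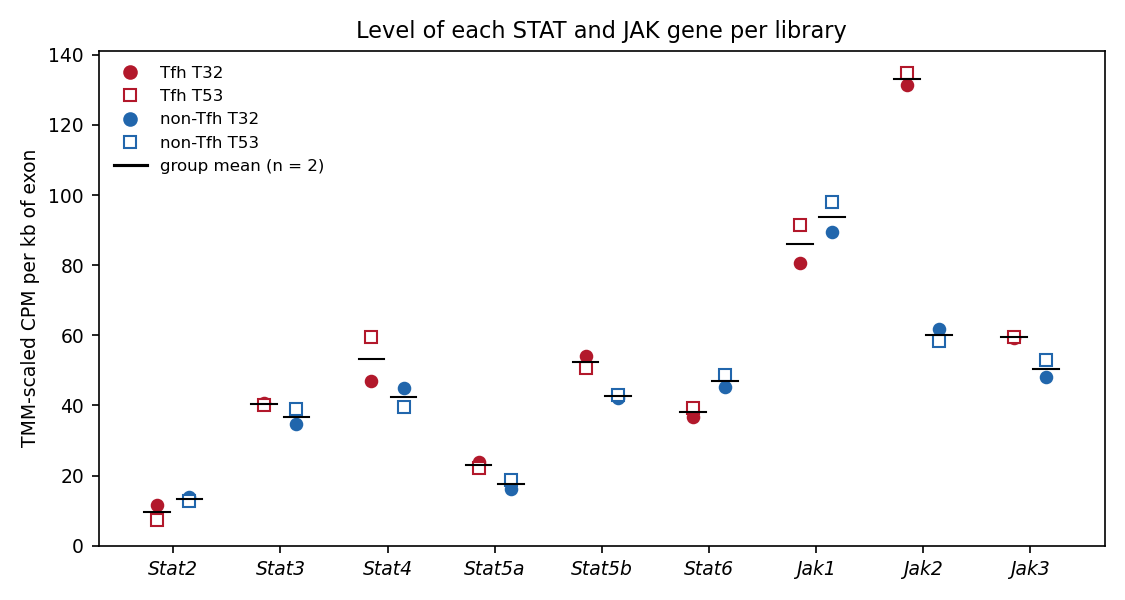
Level of each member in each library, as CPM per kilobase of exon (red, Tfh; blue, non-Tfh; bars, group means, n = 2). Jak2 lies at 131.5 and 134.8 in Tfh and at 61.7 and 58.4 in non-Tfh libraries, and the groups lie close together for the other members.

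Of 89 listed receptors, inhibitors and target genes 83 were tested, 8 were higher and 18 lower in Tfh cells, which is 31.3% called against 8.49% of all genes. The share ran from 0 of 20 interferon target genes to 8 of 8 STAT4 target genes. The lists share members, and they were chosen with earlier results of these data known. Without Tfh T53 11 were lower, and without non-Tfh T32 5 were higher.

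Of the receptors that the kinases serve, 7 were called by edgeR, each lower in Tfh cells. Of 9 gamma chain and related receptors 3 fell, Il7r, Il2ra and Il4ra, with a median log2 fold change of 0.050 for the list. None of the 9 was called higher by edgeR with all libraries, but 1 was with DESeq2, with dispersions that were not robust and without either Tfh library, and 2 were with the replicate block. Il9r, the IL-9 receptor, measured 25.4 and 70.1 CPM in Tfh T32 and T53 and 8.13 and 10.1 CPM in non-Tfh T32 and T53 (log2 fold change 2.37, adjusted p = 0.0691 in edgeR). Il7r, the IL-7 receptor chain, fell 35.5-fold, a log2 fold change of -5.15 that was -4.45 without Tfh T32 and -5.90 without Tfh T53. Il2ra, the high-affinity IL-2 receptor chain, measured 2.22 CPM ± 0.177 in Tfh and 54.5 ± 22.8 in non-Tfh cells, whereas Il2rb, the signalling chain, measured 265 and 256 CPM and did not pass (adjusted p = 0.889 in edgeR). Il2rg, the common chain that binds Jak3, measured 157 and 228 CPM in Tfh and non-Tfh cells (adjusted p = 0.0609 in edgeR). Of 8 tested receptors of the IL-6, IL-12 and IL-10 families 2 fell, Il23r and Il12rb2, the latter 4.17-fold. In Tfh T32 and T53 Il23r held 29 and 11 counts, and Il12rb2 held 28 and 11. Their shared partner Il12rb1 measured 33.1 CPM in Tfh and 35.2 CPM in non-Tfh cells. Of 5 interferon receptor genes with Irf9, 2 fell, Ifngr2 2.41-fold and Ifngr1 1.51-fold; both encode chains of the interferon-gamma receptor, which uses Jak1 and Jak2. The call of Il7r was lost without either non-Tfh library, that of Il12rb2 without either Tfh library, that of Ifngr2 without Tfh T53 and that of Ifngr1 without any one library but non-Tfh T32. Those of Il12rb2 and Ifngr1 were also lost with limma-voom, and those of Il12rb2, Ifngr1 and Ifngr2 against a minimum fold of 1.5.

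Of 18 inhibitors and phosphatases 3 rose and 2 fell, with a list median of 0.066. Ptpn11, the phosphatase SHP-2, rose 4.22-fold, from 237 to 998 CPM (adjusted p = 0.00258 in edgeR), and Socs1, which binds and blocks Janus kinases, rose 2.69-fold (adjusted p = 0.00801). Ptpn1, a phosphatase that acts on JAK2, rose 1.60-fold (adjusted p = 0.0244), a call lost without any one library other than non-Tfh T53 and against a minimum fold of 1.5. Socs2 and Cish, inhibitors that STAT5 induces, fell 17.8-fold and 11.9-fold, folds that rest on few counts in Tfh cells. Socs2 held 3 and 1 counts in Tfh T32 and T53 and 46 and 45 in non-Tfh T32 and T53. Cish held 23 and 6 counts against 166 and 231 in the same order. The log2 fold change of Cish, -3.57, was -4.16 without Tfh T32 and -2.95 without non-Tfh T53. Socs3, which blocks gp130 signals, measured 213 and 166 CPM and did not pass (adjusted p = 0.423).

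Known target genes were grouped by the STAT that acts on them. All 8 tested STAT4 target genes fell (median -1.83), while Stat4 did not differ by the test. Il18rap fell 14.6-fold, Il18r1 15.6-fold, Osm, a cytokine of the IL-6 family, 2.64-fold and Il12rb2 4.17-fold, and 7 of the 8 were called by DESeq2 and 5 by limma-voom. On the log2 scale Il18rap went from -3.87 to -4.58 and Il18r1 from -3.96 to -5.02 when Tfh T32 was left out. The Tfh library then left, T53, held 15 counts of Il18rap and 29 of Il18r1. In edgeR Il18r1 was not called when either non-Tfh library was left out (adjusted p = 0.152 for T32 and 0.20 for T53) or with no count filter (adjusted p = 0.0994). Whichever library was left out, some of the 8 calls were lost, while all 8 log2 fold changes stayed negative. Of 9 STAT5 target genes 5 fell, Il2ra, Socs2, Cish, Osm and Prdm1 (median -1.92), and 5 were called whichever library was left out, while the means of Stat5a and Stat5b were higher in Tfh cells without a call. Prdm1 encodes Blimp-1, a repressor of the Tfh fate. It held 15 and 2 counts in Tfh T32 and T53 and 91 and 57 in non-Tfh T32 and T53. Its log2 fold change of -2.84 was -4.18 without Tfh T32, a value that rests on the 2 counts of Tfh T53. Of 11 tested STAT3 target genes 3 rose, Maf 3.17-fold, Batf 2.17-fold and Bcl3 1.83-fold, and 2 fell, among them Il23r 6.12-fold, with a median of -0.015. Bcl3 was not called in 6 of its 14 alternatives: without Tfh T32, without non-Tfh T32, with limma-voom, with dispersions that were not robust, with the replicate block and against a minimum fold of 1.5. Of 7 tested STAT6 target genes 3 rose, Il4 45.0-fold, Socs1 2.69-fold and Gfi1, and 1 fell, Il4ra 2.13-fold. Il4 held 361 and 176 counts in Tfh T32 and T53 and 11 and 4 in non-Tfh T32 and T53. Its log2 fold change of 5.49 was 6.04 without non-Tfh T32 and 5.20 without non-Tfh T53. Gfi1, a transcriptional repressor, rose 1.89-fold and lost its call without any one library other than Tfh T53 and against a minimum fold of 1.5.

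**Figure D5:**
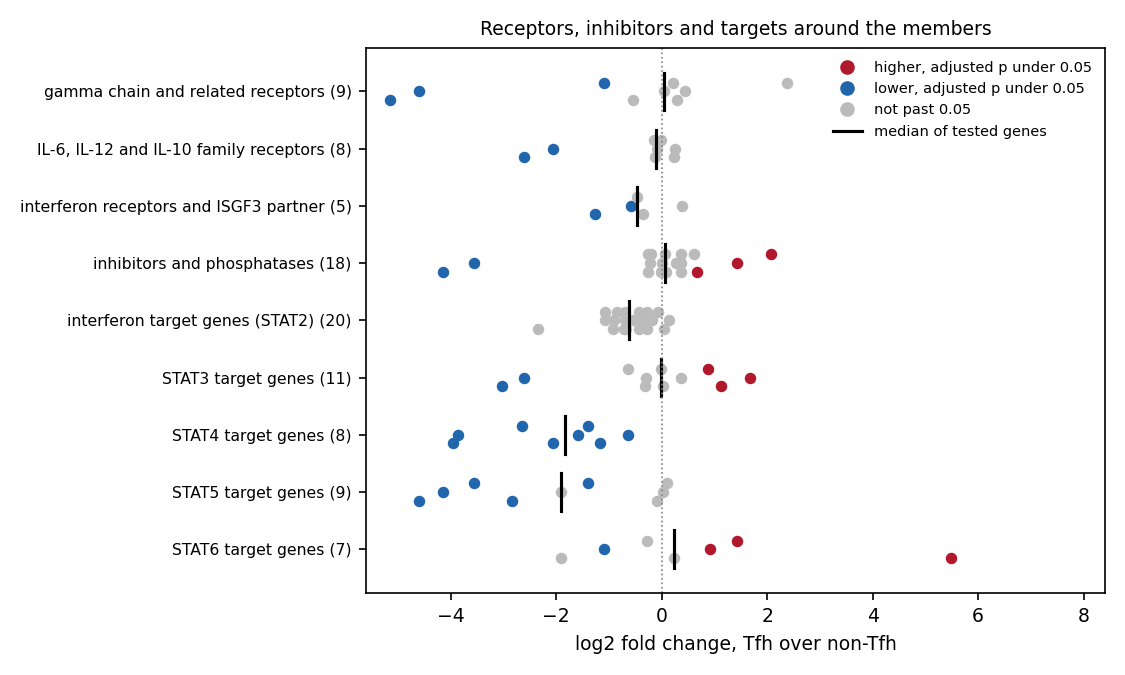
Log2 fold change, Tfh over non-Tfh, of each tested gene in 9 lists around the members (numbers of tested genes in brackets; black bars, list medians). STAT4 and STAT5 target genes lie to the left, with medians of -1.83 and -1.92, and the receptor and inhibitor lists have medians nearer 0.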

How the data were processed

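Stranded total RNA libraries of 4 samples were sequenced in read pairs, per the labels' protocols. The deposited values are raw counts per Ensembl gene; TopHat2, Bowtie2, HTSeq and the build GRCm38 (mm10) are named in the submitters' processing notes, and versions, annotation and strand setting are not given in the sources used here. Symbols, positions and exon lengths came from GENCODE M21 (GRCm38), and promoter sequences from RefSeq (GRCm38.p6), which held windows for all 9 members.

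Groups came from the sample titles. Counts were fitted in R 4.3.3 with edgeR 4.0.16 (filterByExpr, TMM, robust quasi-likelihood, group alone, 2 residual degrees of freedom), two-sided, with Benjamini-Hochberg adjustment over 11702 genes at 0.05. The SE was taken as the log2 fold change, without sign, divided by the root of F, and 95% intervals use the fit's degrees of freedom. Shares were compared by exact permutation over libraries. The code was tested on simulated data.

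The members and lists were chosen with earlier results of these data known. Named were all members and, of each pathway list, up to 4 called genes by adjusted p or the 2 most abundant; uncalled receptors and inhibitors, Irf9, Ptpn1, Prdm1, Bcl3 and the neighbours of Jak2 were named after their values were seen. Some genes on the lists are not reported here. Alternatives were DESeq2 1.42.0, limma-voom (limma 3.58.1), scaling by RLE or upper quartiles, no count filter, at least 5 CPM in 2 libraries, dispersions that were not robust, a replicate block, a test against a minimum fold of 1.5, leaving out mitochondrial genes and the 10 genes with the most counts, shares per kilobase, and each library left out.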

Additional observations from a re-analysis of the deposited data

How the results depend on the processing

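Jak2 was called higher under all 14 alternatives, with log2 fold changes of 1.11 to 1.19. Stat3, Stat4, Stat5b, Jak1 and Jak3 were called under none, and no member changed sign. With the replicate block (the library number as a term) Stat5a was called higher (0.40, adjusted p = 0.0392, range over its alternatives 0.0392 to 1) and Stat6 lower (-0.30, adjusted p = 0.0453, range 0.0453 to 1), so 2 members were higher and 1 lower; calls over all genes went from 994 to 2116. Same-numbered libraries deviated together with r = 0.368 across genes, but the numbers alone do not pair the samples. Without a count filter Stat2 was called lower (-0.49), 1 member lower. With a library left out, Stat2 ran from -0.85 (called, without Tfh T32) to -0.20, and the number of members lower was 0 to 1. Against a minimum fold of 1.5, 5 pathway genes were higher and 10 lower, and calls over all genes fell to 427; this test asks for more. With a library left out 5 to 8 pathway genes were higher and 11 to 22 lower. Without a count filter 1986 of 17991 genes were called, and without Tfh T53 545. Per kilobase, the Tfh minus non-Tfh difference in share was -5.94 points for Stat6 and -3.35 for Jak3, because the genes differ in length. The median of the gamma chain receptors was -0.082 without non-Tfh T32 and 0.20 without non-Tfh T53; the cause was not tested.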

Other observations

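Among 9058 other named genes, each averaging 5 CPM or more, the 3 closest to Jak2 in pattern were Batf, Fuca2 and Por, by the distance between log2 CPM values centred over the 4 libraries (0.103, 0.103 and 0.105). Batf, an AP-1 factor of T helper cells, measured 134 and 133 CPM in Tfh T32 and T53 and 66.0 and 57.0 CPM in non-Tfh T32 and T53. Fuca2, a fucosidase, measured 44.6 and 44.8 against 21.7 and 18.6 CPM, and Por, the cytochrome P450 reductase, 77.3 and 79.2 against 35.1 and 31.3 CPM. The distance is a description over 4 libraries.

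Within 250 kb, 0 of 17 tested genes near Stat3, 0 of 15 near Stat5a and 0 of 16 near Stat5b were called by edgeR, DESeq2 or limma-voom. In edgeR 3, 1 and 1 of them had an unadjusted p under 0.05. Among all genes tested edgeR called 8.49%, and 22.0% had an unadjusted p under 0.05. The 250 kb windows of these members overlap and share genes. The 6 STAT genes summed to 1270 and 1268 CPM in Tfh and 1135 and 1186 CPM in non-Tfh libraries, and the 3 kinases to 1563 and 1657 against 1213 and 1285 CPM.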
